A study of Homo sapiens with 32 samples.

Results

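The libraries described here are 4 cytoplasmic RNA libraries of an IGF2BP3 knockout, 2 prepared in batch 5 and 2 in batches 3 and 4, out of 12 cytoplasmic libraries and 32 libraries in the whole series. They were chosen by their labels: knockout replicates 3 and 4 carry batch 5, and knockout replicates 1 and 2 carry batch 3 and batch 4. The comparison is between batches of the same knockout, so it measures how far this line differed from itself in another batch, and it contains no knockout effect. The cells are HEK293T, an established human embryonic kidney line, grown in DMEM with glutamine, glucose and pyruvate and given no further treatment. All 4 libraries come from the same 1 clone, obtained after transient transfection of non-integrating plasmids that carried 3 guide RNAs against IGF2BP3 together with GFP. The other cytoplasmic groups are the non-targeting CRISPR control in batches 1 and 2 and in batches 3 and 4, the IGF2BP1 knockout in batches 1 and 2, and the IGF2BP2 knockout in batches 3 and 4, with 2 libraries in each. Batch 5 held no control, and the labels do not say what a batch was, so the time and state of the culture, the fractionation, the library preparation and the sequencing cannot be told apart.

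A cultured line can hold its genotype and still differ between harvests, because growth rate, nutrient supply and stress programmes move with density, medium age and passage. The integrated stress response is the programme in which phosphorylated eIF2 slows general translation while the transcription factor ATF4 is made and switches on genes for amino acid uptake, amino acid synthesis and one-carbon metabolism. Growing cells spend much of their output on making ribosomes, and the genes for ribosome assembly, chaperones, sterols and glycolysis are commonly read as a growth programme. IGF2BP3 itself is an RNA-binding protein that is thought to stabilise its target mRNAs in the cytoplasm.

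Batch 5 differed from batches 3 and 4 across much of the transcriptome. The integrated stress response genes were lower in batch 5, and those of ribosome biogenesis, the cytosolic chaperones, cholesterol synthesis and the respiratory chain were mostly higher. The immediate early genes EGR1 and FOS were 11.6-fold and 7.36-fold lower, and most replication-dependent histones and the long noncoding RNA NEAT1 were lower too. In the edgeR quasi-likelihood fit of all 12 cytoplasmic libraries, 10097 of 18212 tested genes, or 55.4%, passed an adjusted p (Benjamini-Hochberg) of 0.05, with 5210 (28.6%) higher and 4887 (26.8%) lower in batch 5. With upper quartile normalization, which moved the median of all genes by -0.133 on the log2 scale, the same counts were 3387 higher and 6924 lower. Changes of at least 1 on the log2 scale were lopsided, with 146 genes (0.802%) called higher and 1169 (6.42%) called lower. Both batch 5 libraries come from 1 batch, whereas each of the other 5 groups in the fit holds libraries of 2 batches, so the p-values do not measure how repeats of batch 5 would vary. Nothing in the labels says that replicates 3 and 4 came from separate cultures.

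The 2 libraries within a side were close and the sides were apart. Over 11487 or 11488 genes with at least 5 CPM, the log2 difference between libraries had an SD of 0.112 between the 2 libraries of batch 5 and of 0.1 between the knockout in batch 3 and batch 4. Between batch 5 and batch 3 or 4 that SD lay between 0.398 and 0.402. In the control, whose libraries share none with this comparison, it was 0.142 within batches 3 and 4 and 0.239 to 0.249 between batches 3-4 and 1-2. The control comparison of batches 3-4 with 1-2 called 4843 genes (26.6%), and 212 of them (1.16%) changed by at least 1 on the log2 scale, against 1315 (7.22%) for the knockout. The knockout libraries held 22770784 to 26119480 counts. CPM values are counts divided by the TMM-scaled library size, and log2 fold changes are fitted values of batch 5 over batches 3-4.

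**Figure D1:**
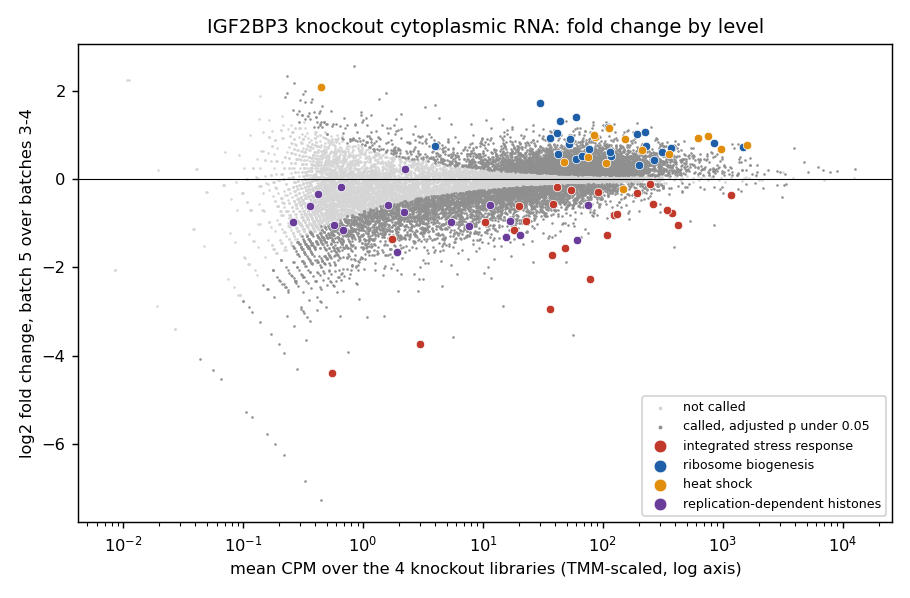
Log2 fold change of batch 5 over batches 3-4 for each tested gene (vertical axis) against its mean CPM over the 4 knockout libraries (horizontal, log axis), with called genes in dark grey and 4 gene lists in colour. All 25 integrated stress response genes lie below 0 and all 25 ribosome biogenesis genes lie above it, and genes at low levels lie mostly below 0.

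The targeted gene and cell identity were checked first. IGF2BP3 (chr7:23310209-23470467, minus strand, GENCODE 29 on GRCh38) stood at 28.8 and 30.6 CPM in the knockout of batches 3 and 4, at 25.1 and 26.3 CPM in batch 5, and at 69.2 and 68.5 CPM in the controls of batches 3 and 4. All 4 knockout libraries were below both controls. The difference between the batches of the knockout was -0.21 (SE 0.064, adjusted p = 0.0051). It was lost without the batch 4 library (-0.163, adjusted p = 0.0934), without replicate 3 of batch 5 (-0.171, adjusted p = 0.081), and with limma on log2(FPKM + 1) (adjusted p = 0.124). Of the relatives, IGF2BP1 was higher in batch 5, at 288 and 291 CPM against 229 and 231 CPM (0.33, SE 0.036, adjusted p = 1.2e-10), but at 0.0551 it was not called when the scaling was allowed to depend on level (adjusted p = 0.2). IGF2BP2 had 69.1 and 73.5 CPM against 69.8 and 74.2 CPM, and the ranges overlapped (-0.02, adjusted p = 0.81), though IGF2BP2 was called lower with upper quartile normalization (-0.149) and with level-dependent scaling (-0.192). The HEK293T markers VIM, KRT8, KRT18, NEFL, NEFM, PAX2, CDH2, LHX1 and SALL1 were present in all 4 libraries. Markers of other cells were scarce: COL1A2, THY1, FAP, PTPRC, CD3E, KRT5, KRT14, CLDN5 and EMCN had at most 2 counts in any of the 4 libraries. The summed CPM of the 8 fibroblast markers was 34.8 and 38.3 in batches 3 and 4 and 21.4 and 19.9 in batch 5, nearly all of it from COL1A1. For the 8 epithelial markers it was 5.90 and 5.50 against 3.89 and 4.43 CPM, for the 8 blood cell markers 10.2 and 11.8 against 7.91 and 8.11 CPM, and for the 8 endothelial markers 1.04 and 1.10 against 0.778 and 1.06 CPM. Their part in the results was not tested. In bulk RNA, fewer cells of a state and less RNA per cell cannot be told apart.

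All 25 tested genes of the integrated stress response were called lower in batch 5, with a median log2 fold change of -0.82, against 26.8% called lower and a median of -0.03 over all tested genes. Like the other gene lists, this list was chosen with earlier results of these data known, so the count is a description. In each of the 25 genes both batch 5 libraries lay below both libraries of batches 3 and 4, as 40.1% of all tested genes did; the ranges were separate in either direction in 77.1%. Of the 25, 10 fell by 1 or more on the log2 scale, and the changes ran from -4.40 to -0.10. The summed level of the list was 4684 and 4728 CPM in batches 3 and 4 and 3034 and 3064 CPM in batch 5. CHAC1, which degrades glutathione and is a standard readout of the programme, had 61.6 and 67.2 CPM in batches 3 and 4 and 8.47 and 8.33 CPM in batch 5. This was a 7.67-fold lower level (-2.94, SE 0.072, adjusted p = 3.9e-32), and the controls of batches 3 and 4, at 21 and 21.2 CPM, lay between the batches of the knockout.

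PCK2, the mitochondrial phosphoenolpyruvate carboxykinase, fell from 132 and 127 CPM to 27.1 and 27.1 CPM (-2.26, SE 0.054, adjusted p = 2.9e-32). NUPR1, a stress-induced chromatin protein, fell from 5.17 and 5.98 CPM to 0.302 and 0.532 CPM (-3.73, SE 0.25, adjusted p = 4.3e-17). FGF21, a secreted stress hormone and the gene with the largest fold change on the list, was scarce on both sides, at 1.43 and 0.688 CPM against 0.0432 and 0.0443 CPM (-4.40, SE 0.64). Both batch 5 libraries were low in each of these genes, and the 2 libraries of batches 3 and 4 differed from each other in FGF21. INHBE, an activin subunit gene known to respond to the programme, was the gene that fell most among those with at least 5 CPM, from 11.2 and 9.77 CPM to 0.821 and 0.930 CPM (-3.57, SE 0.17, adjusted p = 1.2e-21). The controls had 0.844 and 1.18 CPM of INHBE, close to batch 5.

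The enzymes and transporters of the programme fell as well. These members are named here for their roles, after their values had been seen. The serine synthesis genes PHGDH (-1.03), PSAT1 (-0.70) and PSPH (-0.56), the mitochondrial folate enzymes SHMT2 (-0.77), MTHFD2 (-0.55) and ALDH1L2 (-1.73), and asparagine synthetase ASNS (-1.35) were all called lower. PHGDH, for example, went from 569.6 and 568 CPM to 271 and 287 CPM. The cystine transporter SLC7A11 went from 76.1 and 69.5 CPM to 23.2 and 26.0 CPM (-1.57, SE 0.061, adjusted p = 1.1e-24). Other amino acid transporters among the genes that fell most were SLC7A3, a cationic amino acid carrier, at -2.13 (SE 0.11), and SLC6A9, a glycine carrier, at -1.87 (SE 0.078). Of the regulators, ATF4 itself changed by -0.35, its partner CEBPG by -0.29, DDIT3 by -0.96, CEBPB by -0.60, ATF3 by -0.24 and the feedback inhibitor TRIB3 by -0.18. The remaining genes of the 12 that fell most included ULBP1 (-1.99), a ligand of a natural killer cell receptor, NOXA1 (-1.95), an activator of an NADPH oxidase, STUM (-2.23) and the noncoding LINC00173 (-2.15). SLC7A5, the leucine carrier, had the smallest change on the list (-0.10, adjusted p = 0.037).

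Against the controls of batches 3 and 4, the integrated stress response list stood differently on the 2 sides of the comparison. In batches 3-4 of the knockout 8 of the 25 genes were called higher than control and 13 lower, with a median of -0.12, and in batch 5 of the knockout 2 were higher and 21 lower, with a median of -1.22. Those 2 comparisons share the control libraries. Of all genes, 31.6% were called higher and 33.3% lower in the former, and 27.3% and 28.4% in the latter, and batch and genotype cannot be told apart in the latter.

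Of these genes, 5 carry the core of the element bound by ATF4 with a C/EBP partner, TGATGNAA on either strand, within the 250 bases before their RefSeq start. Their sites are printed because these genes are the members in which a known element can be read directly. The core is in capitals with 11 bases on each side, 5′ to 3′ on the strand of the gene (RefSeq, GRCh38.p14):
CHAC1 (chr15:40953251-40953280, plus strand, 209 bases before the start): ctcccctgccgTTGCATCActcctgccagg
ASNS (chr7:97872458-97872487, minus strand, 68 bases before): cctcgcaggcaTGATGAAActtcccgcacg
FGF21 (chr19:48755459-48755488, plus strand, 54 bases before): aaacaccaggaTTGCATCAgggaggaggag
ATF3 (chr1:212565205-212565234, plus strand, 191 bases before): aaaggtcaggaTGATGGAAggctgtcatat
CEBPG (chr19:33374060-33374089, plus strand, 42 bases before): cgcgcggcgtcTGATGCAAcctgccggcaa
CHAC1 and FGF21 hold the core on the other strand, so it reads TTGCATCA there. The promoter table held 20 of the list's genes in 30 windows, and 5 windows (16.7%) had a match, against 1104 of all 35116 windows (3.14%). A match is a description of the letters and not of binding, and the 5 genes with a match changed by -4.40 to -0.24, a range that spans most of the list.

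EGR1 and FOS, immediate early transcription factors that answer growth factors and stress within minutes, were among the genes that fell most. EGR1 (chr5:138465490-138469315, plus strand) had 101 and 107 CPM in batches 3 and 4 of the knockout and 9.59 and 8.37 CPM in batch 5, an 11.6-fold lower level (-3.54, SE 0.070, adjusted p = 2.7e-35). The controls had 14.5 and 11 CPM, so batches 3-4 of the knockout were the side that stood far from the control. FOS behaved alike, at 25.8 and 26.4 CPM against 3.33 and 3.77 CPM (-2.88, SE 0.11, adjusted p = 5.6e-25), with 1.95 and 1.94 CPM in the controls. The rest of the list did not move as a block: of 24 tested immediate early genes 8 were called lower and 4 higher (26.8% and 28.6% of all genes), and the median was -0.13. IER2 fell (-1.0) and EGR2 fell (-0.84), JUN fell by 0.18, while SRF rose (0.32), DUSP1 rose (0.20), and ETV4, a target of FGF and ERK signalling, rose from 1.12 and 1.34 CPM to 2.55 and 2.88 CPM (1.13, SE 0.25). JUNB, with -0.07, and FOSB, with -0.29, were not called.

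The EGR1 promoter is shown because EGR1 had the smallest p of the genes that fell most, and because its serum response elements can be read in it. In the 250 bases before the start (chr5:138465229-138465478, plus strand, RefSeq, GRCh38.p14), capitals mark 2 CArG boxes, the site of serum response factor, at 105 and 83 bases before the start:
EGR1: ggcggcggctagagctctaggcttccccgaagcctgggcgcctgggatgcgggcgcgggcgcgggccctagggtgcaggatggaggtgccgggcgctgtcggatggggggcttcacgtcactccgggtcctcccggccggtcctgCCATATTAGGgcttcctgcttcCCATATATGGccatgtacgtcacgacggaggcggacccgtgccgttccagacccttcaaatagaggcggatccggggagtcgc
A CArG box stood in 407 of 35116 windows (1.16%) and in 3 of 25 windows (12%) of the immediate early genes. None of the 30 windows of the integrated stress response genes held one.

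**Figure D2:**
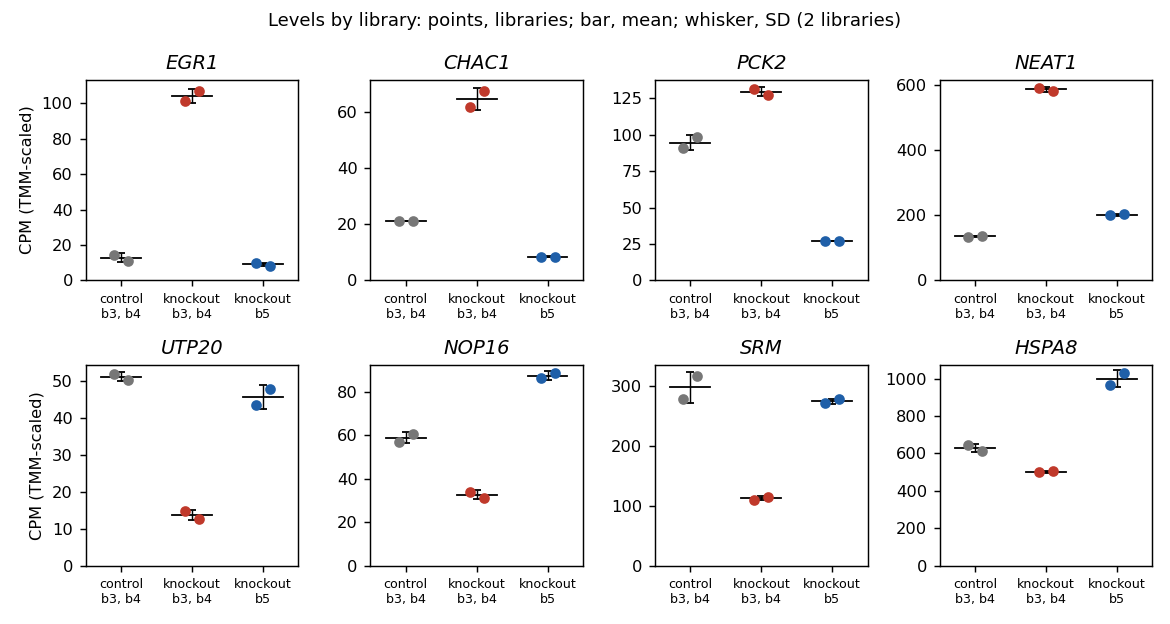
CPM of 8 genes (vertical axes, from 0) in the control of batches 3 and 4, the knockout of batches 3 and 4 and the knockout of batch 5. Points are libraries, bars are means and whiskers are SDs of 2 libraries; EGR1, CHAC1, PCK2 and NEAT1 are lower in batch 5 than in batches 3 and 4 of the knockout, while UTP20, NOP16, SRM and HSPA8 are higher.

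Ribosome biogenesis moved the other way, as a whole. All 25 tested genes were called higher in batch 5 (28.6% of all genes were), with a median of 0.75 and a range from 0.32 to 1.73. Among genes above 66.9 CPM, the highest of 5 bins by mean CPM, 69.1% were called higher and the median was 0.223. In all 25 both batch 5 libraries lay above both libraries of batches 3 and 4, as in 37% of all genes. The list was chosen with earlier results of these data known, so these counts are descriptions too. The summed level rose from 3808 and 3746 CPM to 6255 and 6474 CPM, with 8721 and 8417 CPM in the controls of batches 3 and 4. UTP20, a scaffold of the small-subunit processome and the gene that rose most among those with at least 5 CPM, went from 14.8 and 12.8 CPM to 43.5 and 48.0 CPM (1.73, SE 0.074, adjusted p = 2.8e-23). The controls had 52.0 and 50.3 CPM. NOP16, a nucleolar assembly factor, went from 34.1 and 31.4 CPM to 86.3 and 89.0 CPM (1.42, SE 0.054, adjusted p = 6e-25), above its controls at 57.2 and 60.7 CPM. RRS1, which acts in assembly of the large subunit, rose by 1.32 (SE 0.061).

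Each stage of the pathway was represented, with members named here for their roles after their values had been seen. RNA polymerase I (POLR1A 0.69, POLR1B 0.81) and its factor UBTF (0.32), the snoRNP proteins FBL (0.43), NOP56 (0.63), NOP58 (0.61) and DKC1 (0.75), and the abundant nucleolar proteins NCL (0.83) and NPM1 (0.73) all rose. So did the large-subunit assembly factors PES1 (1.03), BOP1 (0.52) and WDR12 (0.59), which form a complex, and the GTPase GNL3 (1.07). Of the 12 genes that rose most, 5 more that were not on the list are known for work on ribosomes or on the RNA and polyamines of growing cells: PPAN and PNO1 in subunit assembly, DHX37 in the small-subunit processome, TRMT61A in tRNA methylation and SRM in spermidine synthesis. GPATCH4, at 150.4 and 152 CPM against 60.5 and 62.0 CPM (1.31, SE 0.044), is a nucleolar protein. SRM went from 110.0 and 115 CPM to 272 and 278 CPM (1.29, SE 0.046, adjusted p = 7.4e-26), close to its controls at 279 and 316 CPM. PPAN shares exons with the read-through gene PPAN-P2RY11, so its count is uncertain. The others of the 12 were ID1, a BMP-responsive inhibitor of differentiation, at 20.9 and 21.6 CPM against 7.83 and 8.53 CPM (1.37, SE 0.098), CYP27B1 (1.25), the vitamin D hydroxylase, and EMILIN2 (1.25), an extracellular glycoprotein. CYP27B1 overlaps METTL1 on the same strand.

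In batches 3-4 of the knockout 24 of the 25 ribosome biogenesis genes were called lower than control, with a median of -1.07, and in batch 5 of the knockout 16 were lower and 4 higher, with a median of -0.26. Both comparisons use the same control libraries. Of all genes, 31.6% were called higher and 33.3% lower in batches 3-4 of the knockout, and 27.3% and 28.4% in batch 5. In either direction 65% and 55.6% were called, and 16.8% and 10.4% with a change of at least 1.

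The windows before UTP20, the member that rose most, and SRM are printed because each holds CACGTG, the E-box bound by MYC and MAX among others. The capitals mark it, 10 bases before the start of UTP20 (chr12:101279855-101280104, plus strand) and 199 bases before that of SRM (chr1:11060019-11060268, minus strand), in RefSeq sequence of GRCh38.p14:
UTP20: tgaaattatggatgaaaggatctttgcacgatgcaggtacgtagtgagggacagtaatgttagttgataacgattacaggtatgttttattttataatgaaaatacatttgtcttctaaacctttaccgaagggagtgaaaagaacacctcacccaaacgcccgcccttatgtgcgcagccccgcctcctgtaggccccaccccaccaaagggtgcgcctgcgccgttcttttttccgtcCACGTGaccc
SRM: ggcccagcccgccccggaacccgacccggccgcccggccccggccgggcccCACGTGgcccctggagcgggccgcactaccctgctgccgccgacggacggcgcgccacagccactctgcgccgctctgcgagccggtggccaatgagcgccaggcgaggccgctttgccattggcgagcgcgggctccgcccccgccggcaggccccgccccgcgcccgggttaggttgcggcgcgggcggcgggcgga
CACGTG reads the same on both strands. It stood in 2 of 24 windows (8.33%) of the 20 ribosome biogenesis genes in the table and in 2228 of all 35116 windows (6.34%), so the share in the list was near that of all windows.

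Chaperone genes rose. Of 15 tested heat shock genes 14 were called higher and 1 lower, with a median of 0.79 (28.6% and 26.8% of all genes). Among genes above 66.9 CPM, 69.1% were called higher and 12% lower, with a median of 0.223. HSPA8, the constitutive HSP70, went from 499 and 505 CPM to 967 and 1032 CPM (0.99, SE 0.037, adjusted p = 3.9e-25), against 643 and 615 CPM in the controls. The mitochondrial pair HSPD1 (0.94) and HSPE1 (1.01), the cytosolic HSP90AA1 (0.79) and HSP90AB1 (0.68), and the co-chaperones HSPH1 (0.91), CHORDC1 (0.97), AHSA1 (0.66) and DNAJB1 (0.38) rose. HSPA1B went from 71.7 and 66.6 CPM to 151 and 162 CPM (1.18, SE 0.045), but HSPA1A and HSPA1B are nearly identical and share reads, so neither count stands alone. HSPB1, the small heat shock protein, was the member that fell (-0.21). Of 20 genes of the ER unfolded protein response 8 were higher and 6 lower (28.6% and 26.8% of all genes). The chaperones and folding enzymes SDF2L1 (0.57), PDIA6 (0.33), DNAJB11 (0.25), CANX (0.17), HYOU1 (0.13), PDIA3 (0.12) and PDIA4 (0.10) were called higher, and CALR (-0.18) was called lower. XBP1 (-0.59), a transcription factor of that response, and HERPUD1 (-0.76), which acts in ER-associated degradation, were among those that fell.

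**Figure D3:**
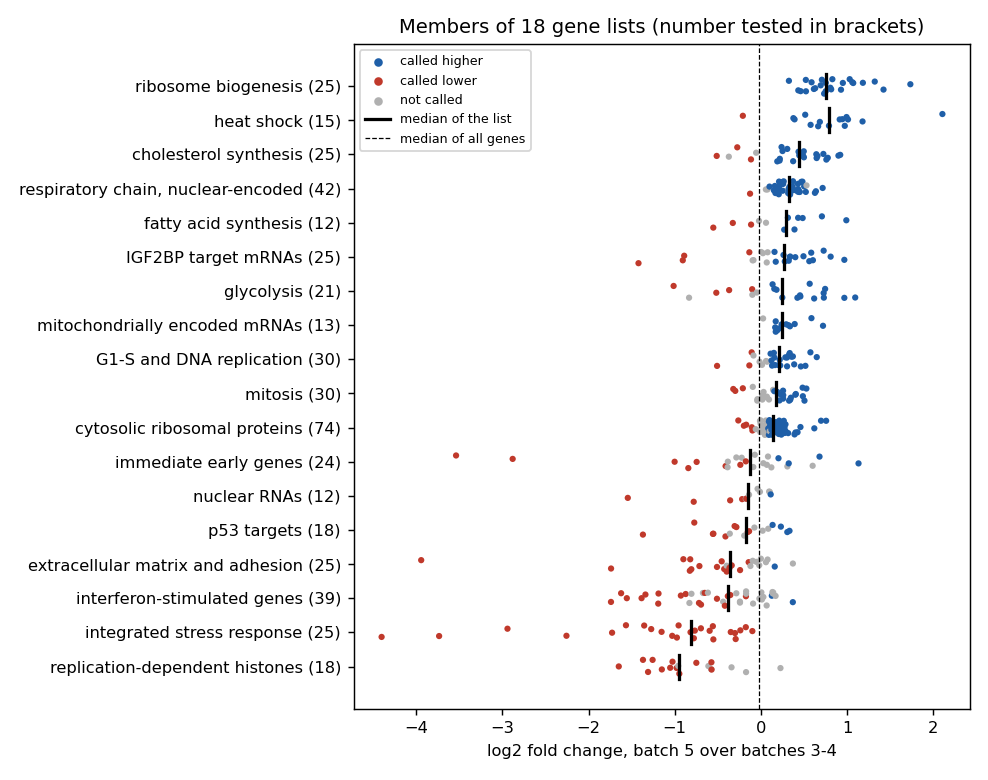
Log2 fold change of batch 5 over batches 3-4 (horizontal axis) for each tested member of 18 gene lists (rows), coloured by call, with the median of each list as a bar and that of all genes as a dashed line. Ribosome biogenesis and heat shock genes lie to the right, and integrated stress response and histone genes to the left.

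Lipid and sugar metabolism followed the growth genes in most of their members. In cholesterol synthesis 20 of 25 genes were called higher and 3 lower (median 0.44), where 28.6% of all genes were higher and 26.8% lower. SQLE, the squalene epoxidase, went from 86.7 and 83.1 CPM to 156 and 164 CPM (0.92, SE 0.042), and HMGCS1, at the entry of the pathway, from 56.6 and 56.5 CPM to 103 and 108 CPM (0.90, SE 0.046). MSMO1, a sterol demethylation enzyme, rose by 0.77. The transcription factors of the pathways went the other way, with SREBF2 at -0.12 and SREBF1 at -0.55. Of 12 fatty acid genes 7 were higher and 3 lower (median 0.29): FASN, the fatty acid synthase, rose by 0.71 and FABP5, a fatty acid carrier protein, by 0.99. Of 21 glycolysis genes 14 were higher and 4 lower (median 0.25), against the same shares of all genes. Above 66.9 CPM, the highest of 5 bins by mean CPM, 69.1% were higher and 12% lower, with a median of 0.223. The share called higher in the fatty acid list and in the glycolysis list did not exceed that of the bin. LDHA, the lactate dehydrogenase subunit, went from 536 and 531 CPM to 1029.7 and 1055 CPM (0.97, SE 0.035, adjusted p = 1.4e-25), and HK2, the inducible hexokinase, from 16.9 and 16.5 CPM to 34.8 and 36.5 CPM (1.09, SE 0.065). SLC2A3, a glucose transporter, fell by 1.01. TXNIP, which blocks glucose uptake and binds thioredoxin, fell from 78.3 and 77.2 CPM to 21.4 and 21.2 CPM (-1.87, SE 0.057), near its controls at 17.3 and 16 CPM.

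Hypoxia and redox genes were mixed. Of 18 hypoxia response genes 6 were higher and 6 lower, near the 28.6% and 26.8% of all genes, and the 3 largest changes were falls of DDIT4 (-1.27), an inhibitor of mTORC1, STC2 (-0.82) and VEGFA (-0.79), the first 2 of which are also on the integrated stress response list. Of 16 oxidative stress genes 8 rose and 1 fell, the latter being SLC7A11, again a member of the integrated stress response list. GCLM, a subunit of the enzyme that starts glutathione synthesis, rose by 0.50 and ME1, a malic enzyme, by 0.39. Of 5 tested metallothionein and zinc genes MT1X (0.50) and SLC30A1 (0.25) rose and SLC39A10 (-0.18) fell.

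Most respiratory chain genes were called higher, by small amounts. Over all genes 28.6% were called higher and 26.8% lower, and above 66.9 CPM, the highest of 5 bins by mean CPM, 69.1% and 12%. Of 42 nuclear-encoded genes 38 were higher and 1 lower (median 0.33), with the largest change in ATP5MC1, a subunit of the ATP synthase ring (0.72, SE 0.042). Of 13 mitochondrially encoded mRNAs 12 were called higher and none lower by edgeR, with a median of 0.24 that became -0.0136 with level-dependent scaling. MT-ND5 went from 2859.7 and 3030.2 CPM to 5074 and 4625 CPM (0.72, SE 0.042), with a control level of 4138 and 3732 CPM. MT-CO1 (0.02) was the member not called. For MT-ND4, the gene with the largest difference in CPM, replicate 3 of batch 5 had 14447 CPM and replicate 4 had 13197 CPM, against 11268 and 12150.0 CPM (0.24, SE 0.042), and its change was -0.0136 with level-dependent scaling. Of 74 cytosolic ribosomal protein genes 52 were higher and 5 lower, with a median of 0.14 that turned to -0.144 with level-dependent scaling. That count is close to the share in the highest bin. Among the members that rose, RPS26 (0.70) and RPL17 (0.62) are genes with pseudogenes or read-through neighbours and are uncertain. EEF2, the translation elongation factor whose mRNA is regulated like those of ribosomal proteins, fell from 3528 and 3551 CPM to 2675 and 2707 CPM (-0.40, SE 0.034).

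Proliferation genes shifted little and most histone mRNAs fell. The shares to set these counts against are 28.6% higher and 26.8% lower over all genes, and 46.3% higher between 27.4 and 66.9 CPM and 69.1% above. Of 30 genes of the G1-S transition and DNA replication 22 were higher and 3 lower (median 0.21, but -0.0595 with level-dependent scaling), led by GINS1 (0.65), CCNE1 (0.57) and CCNE2 (0.52), which act in origin firing and entry to S phase. Of 30 mitosis genes 16 were higher and 3 lower (median 0.17), near the shares of abundant genes, led by CCNA2 (0.53), CDC20 (0.50) and BUB1 (0.49). CCND1, the cyclin of G1, rose from 15.7 and 15.7 CPM to 24 and 23.1 CPM (0.58, SE 0.074), and the CDK inhibitor CDKN1A fell from 93.4 and 99.5 CPM to 66.8 and 64.3 CPM (-0.56, SE 0.050). In the whole list of D-type cyclins and CDK inhibitors 5 of 15 were higher and 7 lower. Of 18 replication-dependent histone genes 12 were called lower and none higher (median -0.95). Between 1.05 and 6.8 CPM, 41.7% of all genes were called lower, with a median of -0.351. H1-2 went from 88.5 and 86.5 CPM to 33.7 and 34.1 CPM (-1.37, SE 0.053, adjusted p = 6e-25), with 15.5 and 16.5 CPM in the controls, and H2AC6 fell by 1.31 (SE 0.091). These mRNAs normally end in a stem-loop without a poly(A) tail, and the libraries were selected for poly(A), so only the polyadenylated part was measured.

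Genes of defence, matrix and stress signalling were called in both directions, and in most of these lists more often lower. Over all genes 28.6% were higher and 26.8% lower, and between 1.05 and 6.8 CPM 5.77% and 41.7%. Of 39 tested interferon-stimulated genes 17 were lower and 2 higher (median -0.38), with IFITM1, an antiviral membrane protein, at 14.5 and 14.6 CPM against 6.52 and 6.25 CPM (-1.19, SE 0.12), and BST2 (-1.38) and PSMB9 (-1.62) at or below 3 CPM on both sides. In batches 3-4 of the knockout 28 of the 39 were called higher than control, and in batch 5 of the knockout 14 were. Against control, 31.6% of all genes were called higher in batches 3-4 of the knockout and 27.3% in batch 5. Of 15 tested NF-kappaB targets 3 were lower and 2 higher, both shares below those of all genes, with NFKB2 (-0.60) among the former. Of 25 tested matrix and adhesion genes 15 were lower and 1 higher (median -0.36), with COL5A1 (-0.90), COL1A1 (-0.83) and COL6A2 (-0.82) among those that fell. Of 18 p53 targets 9 were lower and 4 higher (median -0.17), among them GDF15 (-1.37), TP53INP1 (-0.77) and CDKN1A. Of 16 YAP targets 6 were lower and 2 higher, with AXL (-1.58) and NT5E (-1.36) down and FJX1 (1.07) up. Of 23 lysosome and autophagy genes 11 were lower and 3 higher, and of 15 tested neuronal genes 4 were lower and 5 higher, with NEFM, a neurofilament subunit, at 61.3 and 62.8 CPM against 33.4 and 32.1 CPM (0.92, SE 0.052). In several of these lists many members are scarce, and scarce genes were lower in batch 5 as a class, as described next.

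The direction of change followed the level of the gene. With the tested genes split by mean CPM into 5 bins of equal size, the median log2 fold change was -0.457 in the lowest, then -0.351, -0.0846 and 0.109, and 0.223 in the highest. The share called lower was 41.7% in the second lowest bin and 12% in the highest, and the share called higher was 5.77% and 69.1%. More long noncoding RNAs were called lower than higher (26.8% and 28.6% of all genes were): 358 of 974 lincRNAs were called lower and 27 higher (median -0.492), and 464 of 1202 antisense genes were lower and 32 higher (median -0.484), against a median of 0.0339 over 13823 protein-coding genes. Most of these RNAs are scarce, and at like levels the medians were closer: below 1 CPM -0.622 for lincRNAs, -0.584 for antisense and -0.549 for protein-coding genes, and from 1 to 5 CPM -0.456, -0.481 and -0.396. From 5 CPM up they were -0.282 over 142 lincRNAs, -0.335 over 193 antisense genes and 0.1 over 10851 protein-coding genes. The lincRNA share of all counts was 0.554% and 0.546% in batches 3 and 4 and 0.380% and 0.371% in batch 5. The number of identifiers with a count fell alike, from 27693 and 27959 to 26050 and 25994, at similar depth. By GC content of the longest transcript the medians ran from 0.0521 in the lowest of 5 bins to -0.139 in the highest. With a scaling that depends on level, added after the data had been seen, 25 integrated stress response genes were still called lower, 24 ribosome biogenesis genes higher and 14 heat shock genes higher.

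**Figure D4:**
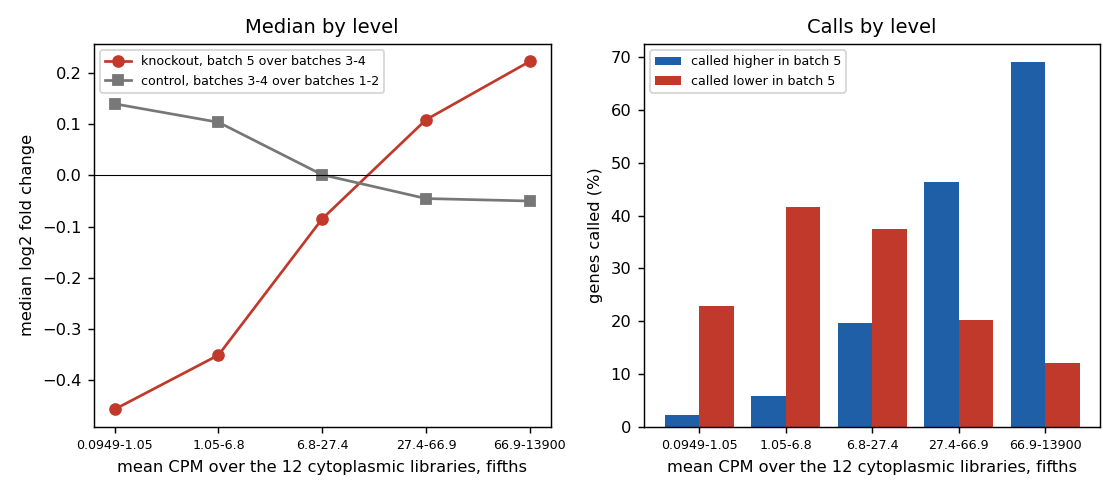
Left, median log2 fold change (vertical axis) over 5 bins of the tested genes by mean CPM (horizontal axis), for the knockout in batch 5 over batches 3-4 and for the control in batches 3-4 over 1-2. Right, the percentage of genes called higher and lower in batch 5 in the same bins; the knockout medians rise from -0.457 to 0.223 and the control medians fall from 0.140 to -0.0499.

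Nuclear-enriched genes were somewhat lower in the cytoplasmic fraction of batch 5, to a degree that depended on the scaling. These were genes called in the control of batches 3 and 4 with a nuclear to cytoplasmic log2 ratio of at least 2. The ratio compares scaled levels in separate libraries and not amounts of RNA. They numbered 652 among those tested. Of these, 213 (32.7%) were called lower and 28 (4.29%) higher, where 26.8% and 28.6% of all genes were. Their median was -0.316. The median was -0.0601 with level-dependent scaling and -0.0217 with limma on log2(FPKM + 1). They made up 0.542% and 0.530% of the counts in batches 3 and 4 of the knockout and 0.397% and 0.404% in batch 5. Most of the 652 were scarce. Over all genes, the lowest and second lowest bins by mean CPM had medians of -0.457 and -0.351, with 22.8% and 41.7% called lower. Of the 652, 129 had a mean of at least 5 CPM. Among these 129, 82 (63.6%) were called lower and 6 (4.65%) higher, with a median of -0.32. Of 259 cytoplasm-enriched genes 60 were higher and 56 lower. NEAT1, the scaffold RNA of paraspeckles, went from 593 and 583 CPM to 199.9 and 203 CPM (-1.54, SE 0.036, adjusted p = 8.5e-33), against 135 and 137 CPM in the controls. MALAT1, the RNA of nuclear speckles, had 101 and 93.2 CPM in batches 3 and 4, 113 CPM in replicate 3 of batch 5 and 63.5 CPM in replicate 4, so the batch 5 libraries differed from each other more than the sides did. Of 12 tested nuclear RNAs 5 were lower and 1 higher. The part of these shares in the changes of low genes was not tested.

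The mRNAs described as IGF2BP targets were more often higher than lower in batch 5, much as abundant genes were. Of 25, 15 were called higher and 4 lower (median 0.26), against 28.6% and 26.8% of all genes. Between 27.4 and 66.9 CPM 46.3% of genes were higher. Above 66.9 CPM 69.1% were higher and 12% lower, with a median of 0.223. LDHA and the cyclin CCND1 were among those that rose. IGF2, the growth factor that gave the family its name, fell from 23.8 and 24.8 CPM to 8.42 and 9.75 CPM (-1.42, SE 0.090, adjusted p = 1.2e-17), with 2.53 and 2.48 CPM in the controls. MAPK4, an atypical MAP kinase, fell by 0.91. The count of IGF2 is uncertain because its exons overlap the read-through INS-IGF2.

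The control offers a batch difference at constant genotype that shares no library with the knockout comparison, and several lists moved there in the opposite sense and others in the same. Between batches 3-4 and batches 1-2 of the control, 15 of the 25 integrated stress response genes were called higher and 3 lower (median 0.28, against 11.2% and 15.4% of all genes), 22 of the 25 ribosome biogenesis genes lower and 1 higher (median -0.23), 13 of the 15 heat shock genes lower and none higher (median -0.42), and 14 of the 25 cholesterol genes lower and 1 higher (median -0.20). Other lists had the same direction in both: in the control 68 of 74 cytosolic ribosomal protein genes (median 0.24), 15 of 42 nuclear-encoded respiratory genes (median 0.09) and 6 of 13 mitochondrially encoded mRNAs (median 0.10) were called higher, though the knockout medians of the ribosomal proteins and the mitochondrially encoded mRNAs were below 0 with level-dependent scaling. Batches 3-4 enter that comparison as the first term and the knockout comparison as the second. In both, then, most integrated stress response genes were called higher, and most chaperone genes lower, on the side of batches 3-4. Over all genes, 3595 were called in both, and 3143 of them (87.4%) had opposite signs. The percentage with opposite signs was between 82.8% and 98.2% in each of 5 bins of mean CPM over the 4 knockout libraries. The 3595 were 35.6% of the genes called in the knockout, where 26.6% of all genes were called in the control. They were 74.2% of those called in the control, where 55.4% of all genes were called in the knockout. In the highest bin, 83.3% of the genes called in the control were also called in the knockout. The knockout comparison called 2954 of all 3643 genes in that bin, so the share was near the call rate there. In the lowest bin the share was 42.3%, where the knockout comparison called 873 of all 3643 genes. Genes are not independent of each other, so these shares are descriptions.

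The sizes differed by gene. HSPA1B changed by -1.50 in the control and 1.18 in the knockout, PCK2 by 1.20 and -2.26, UTP20 by -0.85 and 1.73, and NUPR1 by 1.87 and -3.73. Some genes at the head of the knockout comparison had no called difference between the batches of the control, among them EGR1 (-0.15, adjusted p = 0.292), FOS (-0.06), TXNIP (-0.05), H1-2 (0.21) and ID1 (-0.24). CHAC1 went down in both (-0.60 in the control). Whether these differences between control and knockout exceed their errors was not tested.

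**Figure D5:**
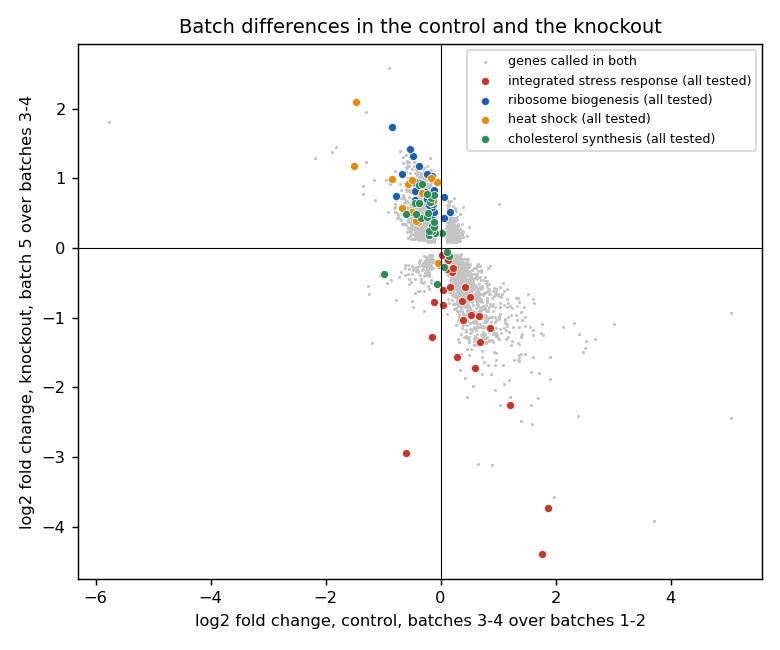
Log2 fold change of the knockout in batch 5 over batches 3-4 (vertical axis) against that of the control in batches 3-4 over 1-2 (horizontal axis), for genes called in both (grey) and all tested members of 4 lists (colour). Of the 3595 genes called in both, 3143 lie at the upper left or the lower right.

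Some genes had 0 counts in both libraries of one side, and up to 3 per direction are given, those with the highest level on the other side. The number of such genes is not given. CIROP had 25 and 24 counts in batches 3 and 4 and 0 in both batch 5 libraries, which against a limit of 3 counts over the group is at least 15.3-fold lower. The pseudogene VN1R20P (17 and 19 counts against 0 and 0, at least 11.2-fold lower) and RANBP3L (11 and 9 against 0 and 0, at least 6.24-fold lower) followed. In the other direction RPF2P1, SNORA22 and RPSAP63 had 3 to 6 counts per batch 5 library and 0 in batches 3 and 4. These limits cover counting error only.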

How the data were processed

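Poly(A)-selected, stranded, paired-end libraries of the cytoplasmic fraction of HEK293T cells were compared. The authors deposited a table of whole-number read counts per gene and a table of FPKM values; the submitters' processing notes name STAR, featureCounts, DESeq2 1.44.0 and GRCh38, and the annotation and strand setting are not given in the sources used here. Of 62703 identifiers 20403 had no symbol and held 0.349% to 0.601% of the counts per library. Library totals ran from 16720159 to 26119480 counts.

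Counts of all 12 cytoplasmic libraries, in 6 groups of 2, were fitted with edgeR 4.0.16 (R 4.3.3): filterByExpr, TMM normalization, quasi-likelihood test with 6 residual degrees of freedom, and Benjamini-Hochberg adjustment over 18212 genes at 0.05. The standard error is the absolute log2 fold change divided by the square root of F. With 2 libraries on each side, an exact permutation test cannot go below p = 0.333. Positions come from GENCODE 29 for 17513 tested genes (96.2%), and motifs were searched in RefSeq windows of 250 bases. Of 107 named genes, 18 have an exon that overlaps another gene on the same strand and 34 on the opposite strand. The test was also run on simulated data.

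Named genes were the IGF2BP family, the 12 largest increases and the 12 largest decreases in fold among called genes with at least 5 CPM and libraries that did not overlap, the 3 largest in each direction by difference in CPM, up to 3 called genes per list with at least 1 CPM, and up to 3 genes per direction with 0 counts on one side. Other genes were named for their role after their values were seen. A few genes that this rule names are not reported here. The members and the gene lists were chosen with earlier results of these data known.

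Alternatives were RLE and upper quartile normalization, DESeq2 1.42.0, limma 3.58.1 on log2(FPKM + 1) and log2(FPKM + 0.1) of the deposited FPKM values, other filters, the 4 libraries alone, genotype and batch terms, and each library left out. Level-dependent and GC-dependent scaling were added after seeing the data.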

Additional observations from a re-analysis of the deposited data

How the results depend on the processing

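No paired analysis was possible because the knockout libraries carry replicate numbers 1 and 2 in batches 3 and 4 and 3 and 4 in batch 5. The number of genes called ran from 7842 with DESeq2 to 10311 with upper quartile normalization, and from 8486 to 8821 with a library left out. Over all alternatives 23 to 25 integrated stress response genes were lower, 24 to 25 ribosome biogenesis genes higher and 13 to 14 heat shock genes higher. With level-dependent scaling, 6659 of the 10097 genes were called in the same direction. Genes called with a change of at least 1 (1315) numbered 854 with DESeq2, 56 and 331 with limma on log2(FPKM + 1) and log2(FPKM + 0.1), 659 among genes with at least 1 CPM and 804 with level-dependent scaling. Genes called higher (5210) numbered 3387 with upper quartile normalization. The median of nuclear-enriched genes (-0.316) was -0.449 with upper quartile normalization, -0.0217 and -0.126 with the 2 FPKM fits, -0.378 with at least 1 CPM, -0.0601 and -0.267 with level-dependent and GC-dependent scaling, -0.265 at a log2 ratio of at least 1, and -0.334 to -0.292 with a library left out.

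List medians changed sign as follows. With upper quartile normalization they were -0.0951 for hypoxia, -0.0777 for the ER unfolded protein response, -0.00702 for oxidative stress and -0.0644 for neuronal genes, and with log2(FPKM + 1) -0.00792 for hypoxia. With level-dependent scaling they were -0.0423 for hypoxia, -0.141 for the ER unfolded protein response, -0.0595 for G1-S genes, -0.144 for ribosomal proteins and -0.0136 for mitochondrially encoded mRNAs, as for MT-ND4 itself. With a library left out, lysosome genes ran from -0.151 to 0.00893 and neuronal genes from -0.0768 to 0.19, both changing sign without replicate 3 of batch 5. The cause was not tested. Of 1597 values of named genes under the alternatives, 1566 kept their side of the threshold, and those called also kept their direction. A kept direction was not required of values called in neither fit.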
